A study of Musca domestica with 29 samples.

Results

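Serpins were represented by 4 genes in the house fly (Musca domestica) expression tables: SPN9, SPN13, SPN15 and Spn2. They were chosen by symbol, as every gene whose name starts with SPN and a number, with Spn2 matched by ignoring case. They are 4 of 16540 genes in the abdomen table and 4 of 16540 in the head table. The tables list them under gene IDs 101896116 (SPN9), 101896278 (SPN13), 101900963 (SPN15) and 101894370 (Spn2). Spn2 is assigned to Muller element C and SPN15 to element B, and SPN9 and SPN13 have no element. Other serpin genes that carry only a locus identifier were not analysed here.

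Serpins are a protein family named for serine protease inhibitors. A serpin offers the protease an exposed loop as bait, and when the protease cuts it, the serpin changes shape and traps the enzyme in an inactive, covalently bound complex, so that each inhibitor molecule is used up in a single reaction. In Drosophila, serpins restrain the protease cascades that activate the Toll pathway and melanization, and several are found in the seminal fluid that males transfer at mating. The sources used here give no target protease for any of the 4 house fly genes, so their order below follows the measurements and not a role.

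The series asked how young Y chromosomes (proto-Y chromosomes), which carry the male determiner, relate to expression. Males of 4 genotypes were assayed, with 3 biological replicates each for abdomen and head: YM males of strain IsoCS, YM(III) males of strain bwbCS, IIIM #1 males of strain CS and IIIM #2 males of strain CSrab. Per the labels, the males share an isogenic background and differ in the proto-Y, on the Y (YM) or on chromosome III (IIIM), and YM(III) males differ also in 1 copy of chromosome III. Females came from IsoCS (replicate 1), CSrab (replicate 2) and, for head alone, CS (replicate 3). Each genotype is 1 strain, so n counts libraries and not strains. Flies were dissected individually, and the sources used here give no age.

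Depth and quality differed between libraries. Male abdomens held 0.789 to 43.5 megareads (M reads, recovered from the values), with 2 libraries under 1 M (YM replicate 2 and IIIM #2 replicate 2), and female abdomens held 30.5 and 13.9 M. Male heads held 5.80 to 39.2 M reads and female heads 29.0 to 29.8 M. Male replicate 3 libraries stood apart from replicates 1 and 2 in both tissues. They were also deeper, at 17.6 to 43.5 M reads against 0.789 to 8.58 M in abdomen. In head they held 31.9 to 39.2 M against 5.80 to 30.8 M. Of 23 marker symbols, 5 were in the tables. The oocyte gene bcd had 181 and 78.2 normalized counts in female abdomens, against 0 to 3.4 in male abdomens, and the yolk protein gene yp3 had 3487 and 2460 in female abdomens, against 49.3 to 789 in male abdomens. The clock neuropeptide gene pdf had 411 to 1620 normalized counts in heads and 0 to 8.8 in abdomens, each on its own table's scale. IR25a, listed beside pdf as a head and nervous system marker, was also present in abdomens. It had 369 and 429 normalized counts in YM male abdomens of replicates 1 and 2 and 10.4 in YM(III) replicate 3. For males over females, the log2 value of IR25a was 2.24 in abdomen and -0.83 in head. Sxl, listed for the sex of the soma, was at -1.54 in abdomen and 0.37 in head. Each had a limma adjusted p under 0.05. None of the listed markers of male accessory gland or testis was among those 5.

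SPN9 and SPN13 were higher and SPN15 was lower in male than in female abdomens, and Spn2 did not pass the test. The values are read counts divided by 1 factor per library, called normalized counts here. A gene was called when its limma p, adjusted by Benjamini-Hochberg over all genes tested in that tissue, was under 0.05. In abdomen 3 of 4 serpins were called between the sexes, 2 higher and 1 lower in males. The background was high, at 71.3% of the 11486 tested genes, with 39% higher and 32.4% lower in males, so a called serpin is no exception here. The median log2 fold change was 1.78 over the 4 serpins and 0.42 over all tested genes. A gene was tested if it reached 10 normalized counts in at least 3 libraries, and with 2 female abdomens this takes at least 1 male library. SPN13 (6 male libraries) and Spn2 (9 male libraries) reached 10 in males alone, so they entered the test through the males and support nothing in the count or the median.

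SPN9 had the largest difference of the 4. Its normalized counts were 660, 452 and 410 in YM males, 340, 367 and 806 in YM(III) males, 263, 292 and 678 in IIIM #1 males and 412, 484 and 1164 in IIIM #2 males, against 15.7 and 9.38 in females. Every male library was above both female libraries. Males averaged 527 ± 260 (SD, n = 12) and females 12.6 ± 4.49 (SD, n = 2). The fitted log2 fold change was 5.19 (SE 0.45, 95% interval 4.20 to 6.18), a 36.5-fold higher level in males, with a limma adjusted p of 1.61e-06. It lay 4.77 above the median of all genes on the log2 scale. Set against the female of its own strain, SPN9 was 32.3 times higher in YM males and 73.2 times higher in IIIM #2 males. Abdomens hold organs that differ between the sexes, and in bulk tissue a change in the number of cells of a type cannot be told apart from a change in RNA per cell.

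SPN13 was scarce in abdomen. Its normalized counts were 7.09, 15.3 and 6.66 in YM males, 8.30, 28.0 and 4.93 in YM(III) males, 9.24, 6.01 and 39.2 in IIIM #1 males and 17.9, 35.2 and 10.96 in IIIM #2 males, against 0.492 and 2.23 in females. The sexes did not overlap, but the female values rest on 3 and 5 reads and the male values on 2 to 81. The exact 95% Poisson intervals of the female values, which cover counting error alone, ran from 0.101 to 1.44 and from 0.726 to 5.21 normalized counts. In YM males, YM(III) replicates 1 and 3 and IIIM #1 replicates 1 and 2, the lower limit was 1.71 to 4.86. Their intervals thus met that of female replicate 2. In IIIM #2 males, YM(III) replicate 2 and IIIM #1 replicate 3 the lower limit was 7.40 or more. The separation is therefore not secure against counting error in every male library. The log2 fold change was 2.62 (SE 0.76, 95% interval 0.96 to 4.29; limma adjusted p = 0.00865), in a test that SPN13 entered through the male values alone. With no filter on low values the limma adjusted p was 0.0107. Without female replicate 1 it was 2.07 and no longer passed (limma adjusted p = 0.115).

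SPN15 ran in the opposite direction. It had 418, 712 and 536 normalized counts in YM males, 603, 712 and 649 in YM(III) males, 589, 766 and 659 in IIIM #1 males and 592, 766 and 881 in IIIM #2 males, against 1399.7 and 1864 in females. Both females exceeded every male. Males averaged 657 ± 122 (SD, n = 12) and females 1632 ± 328 (SD, n = 2). The log2 fold change was -1.32 (SE 0.23, 95% interval -1.82 to -0.82; limma adjusted p = 0.000257), a 2.50-fold lower level in males. It stayed called with each of the 14 libraries left out in turn.

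Spn2 had few reads in abdomen and varied most among the 4. Its normalized counts were 48.2, 15.3 and 13.5 in YM males, 2.77, 14.5 and 20.3 in YM(III) males, 0, 19.8 and 2.91 in IIIM #1 males and 12.5, 35.2 and 88.4 in IIIM #2 males, against 5.41 and 7.15 in females. The female values lay inside the male range. At the depth of the library with no Spn2 read, IIIM #1 replicate 1, the limit that a count of 0 allows (3 reads) is 6.93 normalized counts. The log2 difference of 0.94 (SE 1.03, 95% interval -1.30 to 3.18; limma adjusted p = 0.42) did not pass.

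**Figure D1:**
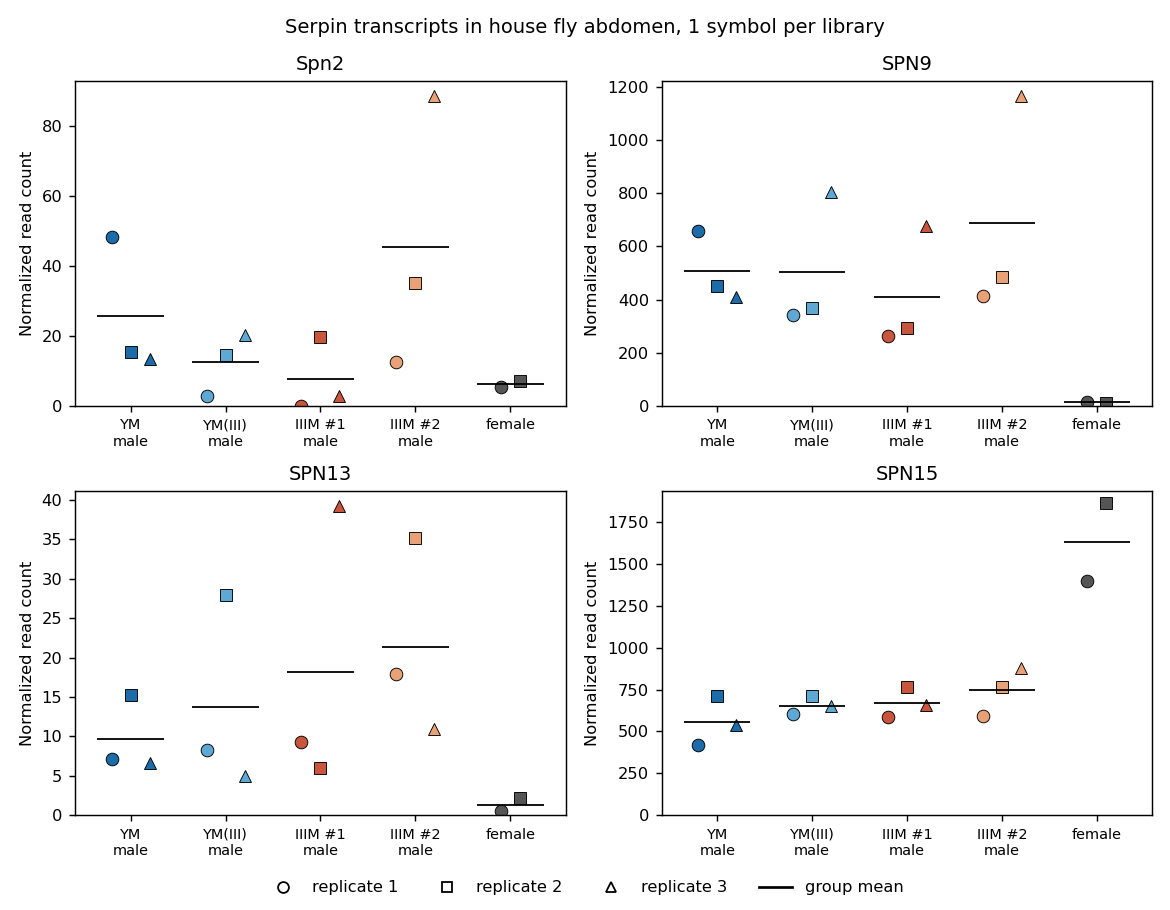
Normalized read counts of the 4 serpins in abdomen (vertical axes, each from 0), by male genotype and then females; each symbol is 1 library, its shape gives the replicate number and the line is the group mean. SPN9 lies at 263 to 1164 in males and at 9.38 and 15.7 in females, while SPN15 is highest in the females.

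In head, SPN15 was lower in males than in females, and 1 of 4 serpins was called. Over all 12234 tested genes 16.5% passed, with 6.41% higher and 10.1% lower in males, and 2 serpins had an unadjusted p under 0.05, as did 31% of all genes. The median log2 fold change was -0.58 over the serpins and -0.01 over all genes. SPN9 and SPN13, higher in male abdomens, had fitted values below 0 in head that did not pass. Whether the sex difference itself differs between tissues was not tested, since the tables were normalized separately.

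SPN15 had 691, 1077 and 1371 normalized counts in YM male heads, 794, 851 and 918 in YM(III), 865, 800.2 and 1128 in IIIM #1 and 685, 822 and 1356 in IIIM #2 male heads, against 1746, 1479 and 1361 in female heads. The sexes met at a single point, where YM replicate 3 exceeded female replicate 3. Males averaged 946 ± 235 (SD, n = 12) and females 1529 ± 197 (SD, n = 3). The log2 fold change was -0.72 (SE 0.22, 95% interval -1.19 to -0.25; limma adjusted p = 0.0404). The call held in 5 of 15 fits that left out 1 library, with limma adjusted p between 0.0108 and 0.178. It was lost without female replicate 1 (-0.62), 2 (-0.74) or 3 (-0.80), and without replicate 1 or 2 of YM(III), IIIM #1 or IIIM #2 or replicate 2 of YM, where the value stayed between -0.73 and -0.67.

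Spn2 separated the sexes in head without passing the test. It had 408, 632 and 507 normalized counts in YM male heads, 341, 508 and 408 in YM(III), 631, 556 and 87.4 in IIIM #1 and 287, 367 and 614 in IIIM #2 male heads, against 957, 868 and 843 in female heads. All 3 females exceeded every male. Males averaged 446 ± 163 (SD, n = 12) and females 889 ± 60.2 (SD, n = 3). The log2 fold change was -1.14 (SE 0.46, 95% interval -2.12 to -0.15; limma adjusted p = 0.108). A single library decided this call: without IIIM #1 replicate 3, the lowest of all heads, the value was -0.91 and passed (limma adjusted p = 0.0131). Females exceeded the male mean of their own strain 1.86-fold in IsoCS, 2.05-fold in CSrab and 1.98-fold in CS.

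SPN9 had 659.9, 669 and 921 normalized counts in YM male heads, 643, 767 and 1067 in YM(III), 492, 509 and 1452 in IIIM #1 and 711, 735 and 1309.8 in IIIM #2 male heads, against 1014, 1496 and 796 in female heads. The sexes overlapped, and the log2 fold change was -0.44 (SE 0.32; limma adjusted p = 0.382). SPN13 had 69.9, 85.7 and 209 in YM, 119.5, 127 and 68.6 in YM(III), 52.0, 229.9 and 208.5 in IIIM #1 and 284, 94.6 and 115 in IIIM #2 male heads, against 53.6, 89.8 and 737 in female heads. Female replicate 3, of strain CS, was above all other heads while the other females lay among the males. The SPN13 fold change was -0.33 (SE 0.69; limma adjusted p = 0.793), with a sign that changed when libraries were left out.

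The head comparison depended on which male replicates entered it. With replicates 1 and 2 of both sexes, 3 of 4 serpins were lower in males: SPN15 by a log2 value of -0.98 (limma adjusted p = 0.00107), Spn2 by -1.02 (limma adjusted p = 0.003) and SPN9 by -0.94 (limma adjusted p = 0.000636). SPN13 was at 0.71 (limma adjusted p = 0.338) in that fit. Over all genes that fit called 46.0%, with 23.8% lower in males, so calls rose for genes in general and not for the serpins alone. With the replicate 3 males alone against all females, 0 of 4 passed in limma, where 22.3% of all genes did, and SPN9 was at 0.13 (limma adjusted p = 0.722). That fit held its males as 1 group and not as a mean per genotype, and it had fewer males. It thus differs from the fit of replicates 1 and 2 in more than the replicates used. The values of pdf in head also split by replicate, at 411 to 762 normalized counts in replicate 3 males and 1155 to 1620 in the other males, against 562 to 624 in females. The part of pdf, or of what it moves with, in the serpin differences was not tested.

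**Figure D2:**
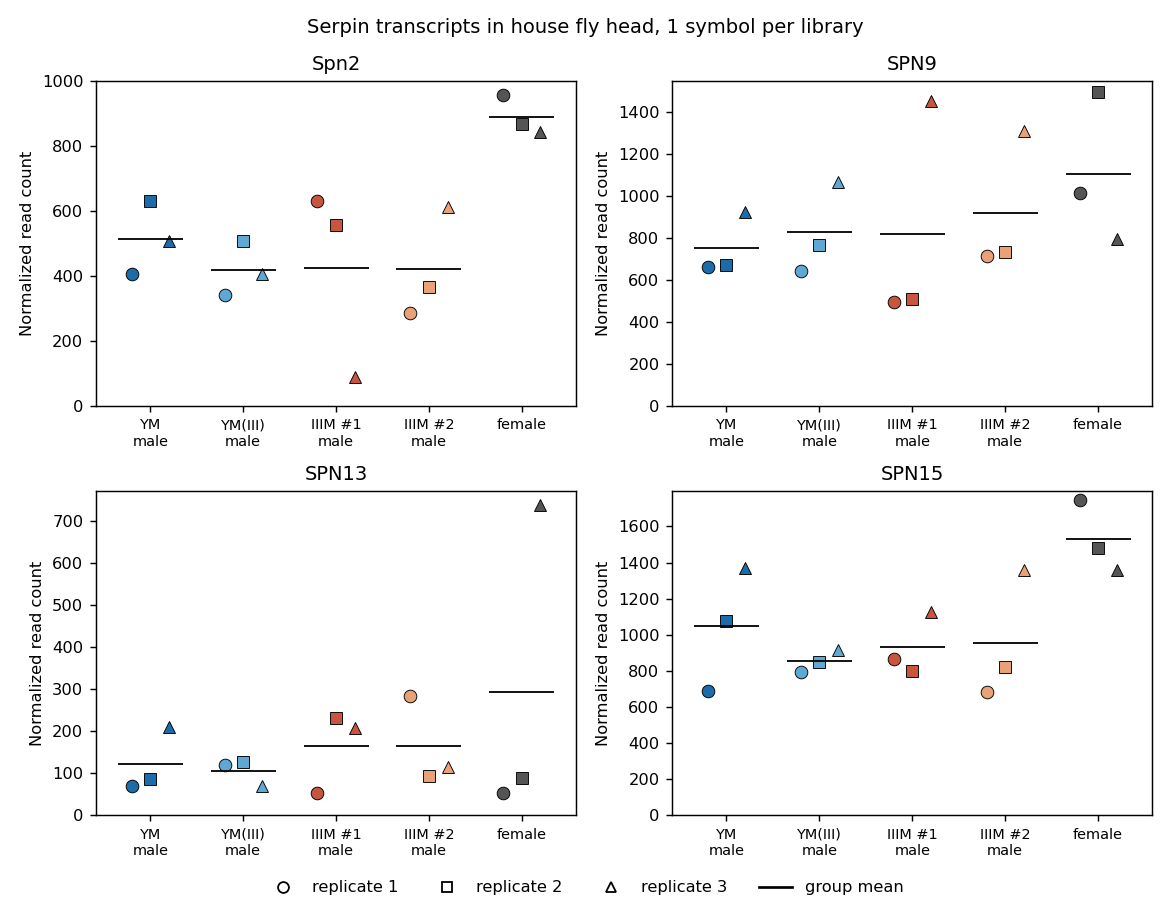
Normalized read counts of the 4 serpins in head (vertical axes, each from 0), by male genotype and then females; each symbol is 1 library, its shape gives the replicate number and the line is the group mean. Spn2 is above every male in all 3 females, and SPN9 replicate 3 (triangles) is the highest library in each male genotype.

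No serpin passed the test between the proto-Y types. In abdomen 0 of 4 were called by limma between YM types and IIIM types (YM and YM(III) over both IIIM genotypes, n = 6 each), with 0 at an unadjusted p under 0.05 and 0 by edgeR and by DESeq2. The limma all-gene backgrounds were 0.0265% in abdomen and 0.473% in head, and head likewise gave 0 of 4 in limma, 0 at an unadjusted p under 0.05 and 0 by either count tool. Of all genes, 6.41% in abdomen and 4.86% in head had an unadjusted p under 0.05. By edgeR and DESeq2, in that order, 0.0265% and 1.21% of all genes were called in abdomen and 0.365% and 1.49% in head. In abdomen the log2 fold changes were 0.34 for Spn2 (95% interval -1.47 to 2.14), 0.00 for SPN9 (-0.78 to 0.79), -0.65 for SPN13 (-1.93 to 0.64) and -0.24 for SPN15 (-0.62 to 0.15). In head they were 0.37 for Spn2 (-0.62 to 1.35), -0.04 for SPN9 (-0.68 to 0.61), -0.43 for SPN13 (-1.44 to 0.59) and 0.01 for SPN15 (-0.45 to 0.48). The intervals leave room for large differences in Spn2 and SPN13 and are narrowest for SPN15.

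The YM and YM(III) males, which per the labels differ also in 1 copy of chromosome III, gave 0 of 4 serpins called by limma in each tissue, with 0 at an unadjusted p under 0.05 and 0 by edgeR and DESeq2. The limma background was 9.23% in abdomen and 0.804% in head, and 24.3% and 7.68% of all genes had an unadjusted p under 0.05. By edgeR and DESeq2, in that order, 7.69% and 17.4% of all genes were called in abdomen and 0.713% and 2.84% in head. In abdomen the log2 fold changes of YM over YM(III) were 1.08 for Spn2 (95% interval -1.47 to 3.63), 0.09 for SPN9 (-1.02 to 1.202), -0.22 for SPN13 (-2.04 to 1.60) and -0.27 for SPN15 (-0.81 to 0.28). In head they were 0.29 for Spn2, -0.12 for SPN9, 0.09 for SPN13 and 0.24 for SPN15.

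Between the IIIM genotypes, Spn2 had the largest serpin difference. In abdomen its log2 fold change of IIIM #1 over IIIM #2 was -3.03 (SE 1.15, 95% interval -5.57 to -0.48), with an unadjusted p of 0.0243 and a limma adjusted p of 0.9998. Leaving out 1 library at a time moved it between -4.16 (without IIIM #1 replicate 2) and -1.97 (without IIIM #1 replicate 1, the library with no Spn2 read). The ranges overlapped, at 0 to 19.8 in IIIM #1 and 12.5 to 88.4 in IIIM #2. The other 3 serpins had values of -0.72 for SPN9, -0.50 for SPN13 and -0.14 for SPN15 in abdomen. Thus 0 of 4 were called by limma in abdomen, where the background was 0.0441%, with 1 at an unadjusted p under 0.05, as had 3.28% of all genes. In head 0 of 4 were called (background 0.174%), with 0 at an unadjusted p under 0.05, against 4.44% of all genes. edgeR and DESeq2 also called 0 serpins in each tissue. In that order, they called 0.0176% and 0.229% of all genes in abdomen and 0.0995% and 0.614% in head.

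Spn2 in head changed sign with the replicates used. Over all 3 replicates its log2 fold change of IIIM #1 over IIIM #2 was -0.36 (95% interval -1.75 to 1.04). With replicates 1 and 2 alone it was 0.86 (limma adjusted p = 0.123), since IIIM #1 had 631 and 556 normalized counts and IIIM #2 had 287 and 367, while replicate 3 had 87.4 in IIIM #1 and 614 in IIIM #2. The authors' deposited table, whose means rest on replicates 1 and 2, gives IIIM #2 over IIIM #1, the other way round, and lists Spn2 in head at -0.88 with an adjusted p of 0.00337. It was the single serpin value under 0.05 among 16 in head, and the authors' deposited table has 0 among 16 in abdomen, of which 2 carry no adjusted p. For IIIM #2 over IIIM #1 in head, 5.96% of all genes with an adjusted p in the authors' deposited table were under 0.05, and over its 4 comparisons the share ran from 3.18% to 7.37% in head and from 1.87% to 10.05% in abdomen. With replicates 1 and 2 alone SPN9 in head was at -0.53 for IIIM #1 over IIIM #2 (limma adjusted p = 0.0468), and the authors' deposited table lists 0.54 for IIIM #2 over IIIM #1 (adjusted p = 0.0836).

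A test of any difference among the 4 male genotypes called 0 of 4 serpins by limma in abdomen and in head, with 0 at an unadjusted p under 0.05 and 0 by edgeR and DESeq2 in each. The limma backgrounds were 2.72% in abdomen and 1.08% in head, and 17.2% and 7.53% of all genes had an unadjusted p under 0.05. By edgeR and DESeq2, in that order, 2.46% and 12.1% of all genes were called in abdomen and 1.01% and 4.17% in head. The order of genotypes by median differed between genes and tissues. In abdomen IIIM #2 was the highest male genotype for all 4 serpins, with ranges that overlapped the next genotype in each case. For Spn2, SPN9 and SPN15 that median was replicate 2, a library of 0.791 M reads in which Spn2 had 4 reads. The share of all genes with IIIM #2 highest was not computed, so this marks no trait of the serpins. In head the highest male genotype was IIIM #1 for Spn2 and SPN13, YM(III) for SPN9 and YM for SPN15.

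**Figure D3:**
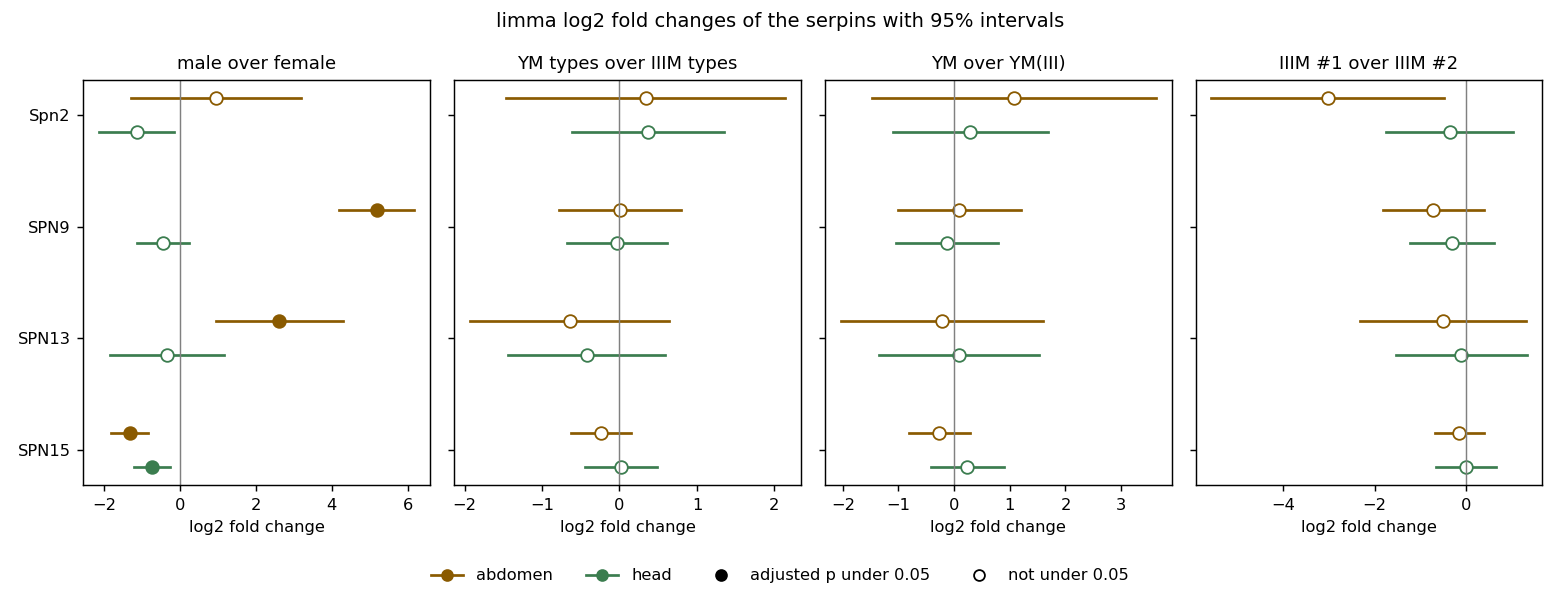
limma log2 fold changes (horizontal axes) of the 4 serpins for sex and for 3 comparisons of male genotypes, with 95% intervals; filled points have an adjusted p under 0.05. Filled points occur for sex alone, for SPN9, SPN13 and SPN15 in abdomen and for SPN15 in head.

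The replicate 3 males, set apart in the data and compared after that was seen, differed from replicates 1 and 2 in SPN9. In head SPN9 was at 921 to 1452 normalized counts in replicate 3 and 492 to 767 in replicates 1 and 2, with no overlap and a log2 difference of 0.87 (SE 0.15; limma adjusted p = 0.000881). SPN15 in head differed by 0.53 (SE 0.14; limma adjusted p = 0.0109), and for both genes replicate 3 was the highest library in 4 of 4 genotypes. Thus 2 of 4 serpins were called in head, both higher, where 49% of all genes were called and 24.6% were higher. In abdomen 1 of 4 was called, SPN9 at 0.86 (SE 0.26; limma adjusted p = 0.03), against a background of 31.3% called and 14% called higher. That call was lost without replicate 1 (0.83) or 3 (0.75) of YM(III), replicate 1 (0.82), 2 (0.85) or 3 (0.72) of IIIM #1, or replicate 1 (0.80) or 3 (0.69) of IIIM #2, with limma adjusted p up to 0.124. With TMM scaling, 59.2% of the calls in abdomen were in the higher direction, against 44.7% with the deposited scaling. What sets replicate 3 apart is not given in the labels. Its libraries were also the deepest male ones in each tissue, so depth cannot be told apart from replicate here.

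Relative to all reads in each library, as counts per megaread (CPM), the 4 serpins differed in mean level between tissues. Over all males, the head and abdomen ranges overlapped for each of the 4. Taken by genotype, they overlapped for SPN9 in all but YM, for SPN13 in both IIIM genotypes and for SPN15 in YM alone. In females, with 3 heads and 2 abdomens, they did not overlap for any of the 4. The share of all genes without overlap was not computed, so this marks no trait of the serpins. Spn2 had 21.6 ± 8.39 CPM in male heads and 2.95 ± 2.97 in male abdomens (SD, n = 12 each), and in females 43.6 ± 4.89 in head (SD, n = 3) and 1.12 ± 0.05 in abdomen (SD, n = 2), which gives 7.32-fold more in head for males and 39.0-fold for females. Within male genotypes the Spn2 ratio ran from 3.77 in IIIM #2 to 19.5 in IIIM #1; head and abdomen did not overlap within any genotype, but did over all males. SPN13 had 6.77 ± 3.79 in male heads and 2.05 ± 1.53 in male abdomens, and in females 14.5 ± 19.2 in head and 0.229 ± 0.185 in abdomen. The female head mean rests on the CS library, at 36.7 CPM. SPN15 ran the other way, at 46.6 ± 15.1 in male heads and 86.0 ± 18.6 in male abdomens, and at 74.9 ± 12.6 in female heads and 289.98 ± 14.3 in female abdomens. SPN9 differed by sex: males had 40.8 ± 17.6 in head and 67.2 ± 27.3 in abdomen, whereas females had 53.3 ± 14.4 in head and 2.33 ± 1.155 in abdomen, a ratio of head over abdomen of 0.608 in males and 22.9 in females. These are descriptions with no test, and shares of reads also move with the other genes of a tissue.

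**Figure D4:**
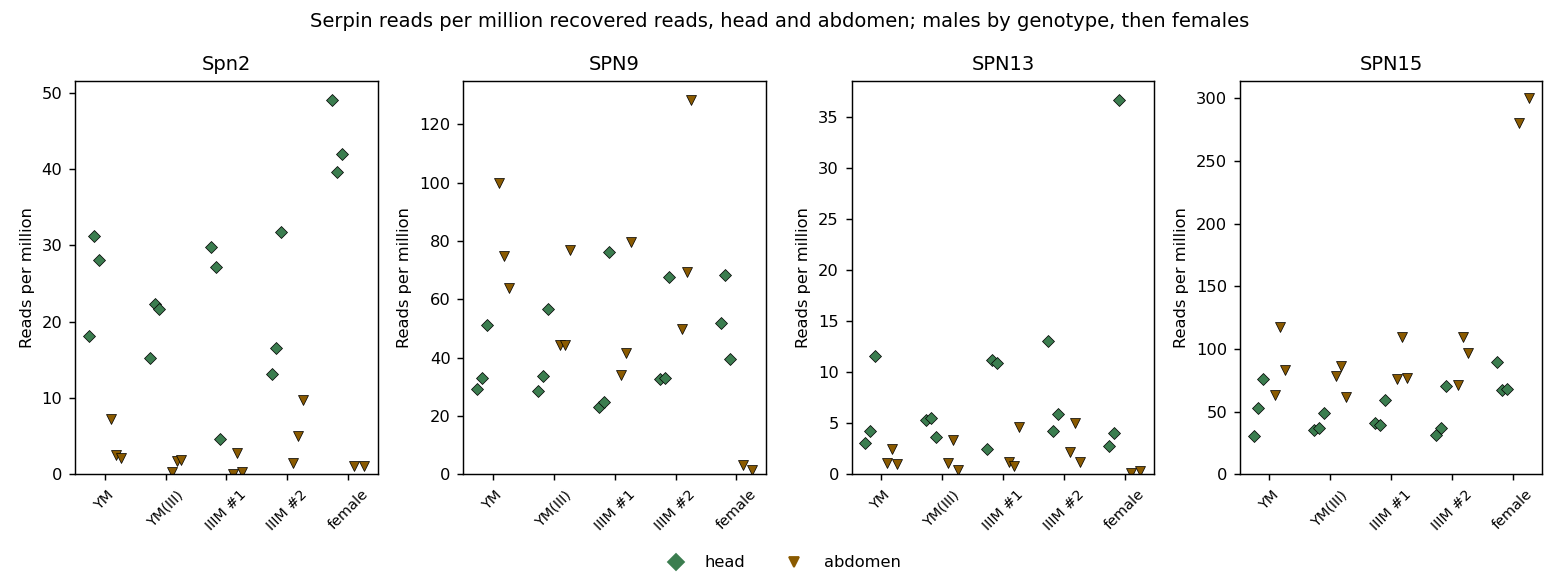
CPM, reads scaled to a library of 1 M recovered reads, of the 4 serpins (vertical axes, each from 0) in head (diamonds) and abdomen (triangles), males by genotype and then females; each symbol is 1 library. The female abdomens are far below the female heads for SPN9, at means of 2.33 and 53.3, and above them for SPN15.

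The serpins differed in how much replicates of a genotype varied. The residual SD of log2 values in abdomen was 0.27 for SPN15, 0.67 for SPN9, 1.02 for SPN13 and 1.53 for Spn2, against a median of 0.61 over all tested genes. In head it was 0.38 for SPN15, 0.56 for SPN9, 0.87 for SPN13 and 0.87 for Spn2, against a median of 0.46. SPN15 was thus the steadiest of the 4 in each tissue. Spn2 and SPN13 also had the fewest reads in abdomen.

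Genes whose log2 values followed those of a serpin most closely over the 12 male libraries of a tissue were found by Pearson's r, as a description. The libraries share the replicate 3 split, so r over the 8 libraries of replicates 1 and 2 is given too. The genes were picked as the highest of 8094 in abdomen and 9886 in head over 12 libraries that include those 8. Neither r is thus an independent check, and a highest r of so many is high by selection. In abdomen the nearest to SPN15 was LOC101891007 (r = 0.91, and 0.93 over 8 libraries), followed by LOC101893255 and LOC101896791. The nearest to SPN13 was LOC101890180 (r = 0.90, and 0.82 over 8), followed by LOC101898041 and LOC101892386. For Spn2 it was LOC101898494 (r = 0.85, and 0.89 over 8), followed by LOC101894557 and LOC101889989. The nearest to SPN9 was LOC101897144, whose r of 0.85 was 0.41 over the 8 libraries, followed by LOC101897972 and LOC101892978.

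In head, SPN15 was nearest to LOC101900502 (r = 0.96, and 0.87 over 8 libraries), then LOC101888722 and LOC101895376. SPN9 was nearest to LOC101901742 (r = 0.95, and 0.74 over 8), then LOC101897576 and LOC101891237. Spn2 was nearest to LOC101891089 (r = 0.90, and 0.63 over 8), then LOC109612531 and LOC101889269. SPN13 was nearest to LOC101896779 (r = 0.70, and 0.83 over 8), then LOC109613869 and LOC101888804. Between serpins, r over the 12 libraries ran from -0.51 (Spn2 with SPN9 in head) to 0.65 (SPN9 with SPN15 in head). Over the 8 libraries of replicates 1 and 2, those values were -0.53 and -0.084. Spn2 with SPN9 in abdomen had 0.61 over 12 libraries and 0.76 over 8, and Spn2 with SPN15 in head had 0.040 over 12 and 0.73 over 8.

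The immune genes in the tables were the antimicrobial peptide genes attacin, defensin-1 and diptericin, and lysozyme. In abdomen 1 of 4 was called between the sexes, defensin-1, higher in males by 3.63 on the log2 scale (SE 1.43; limma adjusted p = 0.0387), against 71.3% of all genes called and 39% called higher. In head 0 of 4 were called between the sexes by limma, where 16.5% of all genes were. An unadjusted p under 0.05 was found for 1 of the 4 and for 31% of all genes. Between YM and YM(III) abdomens 1 of 4 was called, lysozyme, lower in YM males by a log2 value of -5.04 (SE 1.19; limma adjusted p = 0.0268), against 9.23% of all genes. All 4 had an unadjusted p under 0.05, as did 24.3% of all genes. The antimicrobial peptide genes were higher in YM males without passing. Their values were 5.50 for attacin, 3.78 for defensin-1 and 8.19 for diptericin (limma adjusted p = 0.144, 0.166 and 0.130). In replicate 3 heads 2 of 3 tested immune genes were lower than in replicates 1 and 2, attacin and defensin-1, where 24.4% of all genes were called lower and 24.6% higher.

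Serpin values in the libraries with the most antimicrobial transcripts were mixed. The YM abdomens of replicates 1 and 2 had 8528 and 41034 diptericin normalized counts, and SPN9 there was at 660 and 452, within the range of the other males. The CS female head with 737 SPN13 counts also had 5055 attacin, 4285 diptericin and 6560 yp3 counts, while the YM heads of replicates 1 and 2, with 3086 and 8539 diptericin counts, had 69.9 and 85.7 SPN13 counts. Whether these genes move together was not tested.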

How the data were processed

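RNA from dissected abdomens and heads was sequenced with a stranded poly(A) kit, per the labels' protocols, in 29 libraries. DESeq2 1.16.1, HTSeq 0.9.1, HISAT2 0.12.2 and CASAVA 1.8 are listed in the submitters' processing notes. The genome build and the strand setting of counting are not given in the sources used here. Separate tables, normalized apart, hold abdomen and head. Values are the linear normalized counts (signal) that the authors deposited. All values (100%) were whole multiples of 1 read's value within 0.001 reads, so whole reads were recovered, and depth and CPM come from them. The authors' deposited log2 fold changes and adjusted p-values were copied as they stand. Of the gene IDs, 13644 matched RefSeq and 2896 did not.

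Testing was limited to genes reaching 10 normalized counts in 3 or more libraries: 11486 in abdomen and 12234 in head for sex, 11342 and 12060 among males. All 4 serpins passed in both tissues. limma 3.58.1 in R 4.3.3 was fitted to log2(value + 1), a scale that understates changes of low genes, two-sided, with a mean per group and p adjusted over all tested genes. The sex comparison set the mean of the 4 male genotypes against the females. The replicates are called biological in the series' design text. Alternatives were edgeR 4.0.16 and DESeq2 1.42.0 on recovered reads, TMM factors, other filters and pseudocounts of 0.1 and 5, a replicate block and each library left out. Replicate-restricted male sets were added after the data were seen, and the replicate 3 males were fitted as 1 group against the females. The tests were also run on simulated data with independent libraries, no replicate 3 split and changes only in genes with higher counts. Those data do not cover the low abdomen values of SPN13 and Spn2 or the replicate split. Python 3.11.15 and matplotlib 3.10.9 drew the figures.

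The members and lists were chosen with earlier results of these data known. All serpins are named, with the 3 most similar genes each (mean of at least 50) and every called immune gene. A planned list of serpin-related genes by protein similarity was not made, as no protein sequences were used here. Reads shared between near-identical serpin genes were not tested.

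Same-numbered male libraries deviated together in 18 of 18 head pairs (r above 0.1 across genes, lowest 0.287) and in 17 of 18 abdomen pairs (lowest 0.0686). In head, each male replicate 1 also had r above 0.1 with replicate 2 of the other genotypes. YM replicate 2 had r = 0.346 with YM(III) replicate 1 and 0.292 with YM(III) replicate 2. The check thus reflects replicate 3 standing apart and cannot decide whether the numbers pair libraries.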

Additional observations from a re-analysis of the deposited data

How the results depend on the processing

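No serpin call changed direction under any alternative run. In abdomen the sex calls of SPN9 and SPN15 held in all 28 alternatives (log2 4.81 to 5.76 and -1.53 to -1.11). Over the alternatives for sex in abdomen, 53.5% (no filter) to 78.5% (DESeq2) of all genes were called. SPN13 was tested in 26 of the alternatives and called in 25 (1.53 to 3.53). It reached the filter's minimum in 6 male and 0 female abdomens. In the filtered fits it thus entered through the males alone, and its calls there add no support. In head the SPN15 call held in 16 of 28. The number of serpins called between head sexes, 1 of 4, was 3 with replicates 1 and 2 only (46.0% of all genes called), 3 with the males of replicates 1 and 2 and all females (53.4%), 0 with the males of replicate 3 (22.3%), 0 with strain-matched males (14.7%), and 0 to 2 when 1 library was left out (7.12% to 21.2%). With replicates 1 and 2 only, head gave 1 call between the IIIM genotypes and 1 among all male genotypes, both SPN9 (limma adjusted p = 0.0468 and 0.0499), where 4.05% and 13.5% of all genes were called. The SPN9 call for replicate 3 in abdomen held in 12 of 20 alternatives. Male sets restricted by replicate were chosen after the data were seen.

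Signs changed in values that had not passed the test; the cause was not tested. By edgeR and DESeq2, in that order, abdomen YM types over IIIM types gave -0.089 and -0.034 for Spn2 and -0.12 and -0.080 for SPN9, YM over YM(III) gave -0.022 and -0.0077 for SPN9, and IIIM #1 over IIIM #2 gave 0.063 and 0.031 for SPN13. In head, IIIM #1 over IIIM #2 gave -0.030 and -0.036 for SPN15 and 0.011 and 0.0056 for Spn2. SPN9 in abdomen between proto-Y types was -0.034 with TMM factors and -0.048 without the libraries under 1 M reads, where SPN13 for replicate 3 was 0.064. With replicates 1 and 2 only, head gave 0.71 for SPN13 by sex, 0.18 for SPN9 between proto-Y types, -0.66 for SPN13 in YM over YM(III) and 0.86 for Spn2 in IIIM #1 over IIIM #2. With the males of replicate 3, SPN9 by sex in head was 0.13.

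Leaving out 1 library at a time gave these log2 ranges where a sign changed. In abdomen they were -0.19 to 0.90 (Spn2) and -0.19 to 0.23 (SPN9) between proto-Y types, -0.71 to 0.43 (SPN13) and -0.13 to 0.49 (SPN9) for YM over YM(III), -1.25 to 0.010 (SPN13) for IIIM #1 over IIIM #2, and -1.06 to 0.18 (SPN13) and -0.023 to 0.16 (SPN15) for replicate 3. In head they were -1.08 to 0.80 (SPN13) by sex, -0.10 to 0.16 (SPN15), -0.090 to 0.62 (Spn2) and -0.17 to 0.22 (SPN9) between proto-Y types, and -0.38 to 0.40 (SPN13) and -0.29 to 0.076 (SPN9) for YM over YM(III). They were -0.48 to 0.58 (SPN13), -0.20 to 0.29 (SPN15) and -0.86 to 0.56 (Spn2) for IIIM #1 over IIIM #2, and -0.14 to 0.61 (SPN13) and -0.93 to 0.29 (Spn2) for replicate 3.

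With a replicate block, SPN15 by sex in head was -0.72 (limma adjusted p = 0.0146) and SPN9 by sex in abdomen was 4.90 (limma adjusted p = 4.08e-07). No serpin call changed with that block in the comparisons of sexes and genotypes. Replicate numbers were not shown to pair libraries, and among females they stand for strains, so the block adds no support to the sex calls. The counts of all called genes ranged over the alternatives from 6330 to 9012 in abdomen and 867 to 6432 in head for sex, 0 to 137 and 26 to 548 between proto-Y types, 247 to 2379 and 22 to 1182 for YM over YM(III), 1 to 26 and 7 to 477 for IIIM #1 over IIIM #2, 9 to 1491 and 50 to 1594 among genotypes, and 2133 to 4903 and 4692 to 6377 for replicate 3. Depth limits SPN13 and Spn2 in abdomen, where single libraries held 2 reads or fewer.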
